A study of Mus musculus with 76 samples.

Results

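The step from thymic early T lineage progenitors (ETP) to double negative 2 (DN2) thymocytes was followed in 5 libraries of natural mouse thymocytes. The members were chosen by their labels alone: 2 libraries labelled thymic ETP and 3 labelled DN2, out of 76 libraries in the series, each made from 1000 sorted cells. Both groups are given as C57BL/6 thymus with no transgene or agent of their own. A shared protocol text describes infection of pro/pre-B cells with a Hoxb5 virus, their transfer into sublethally irradiated mice and the sorting of target cells from those recipients. It does not say whether the natural thymocytes came from untreated animals, and the labels give no sort gate, age, sex or number of animals. The induced groups used for comparison are 3 libraries of thymic ETP and 2 of DN2 from recipients of the Hoxb5-transduced pro/pre-B cells.

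An ETP is the earliest thymocyte with T lineage potential. It carries the receptor tyrosine kinase Kit and the adhesion receptor CD44 but not CD25, the interleukin 2 receptor alpha chain encoded by Il2ra, and it can still form myeloid, dendritic and natural killer cells. Notch signals from the thymic stroma drive it to DN2, where CD25 appears, the progenitor factors decline, and Bcl11b, the zinc finger factor that closes the other fates, comes on. Rearrangement of the T cell receptor beta, gamma and delta genes starts there, and at DN3 Kit and CD44 are gone and the pre-T cell receptor chain Ptcra is high.

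Values are FPKM, fragments scaled to transcript length and library size, as deposited by the authors. The 5 libraries summed to 789200 to 885500 FPKM and had 10732 to 10866 genes at 1 FPKM or more. The steps between low values placed 1 fragment on a 1-kilobase transcript at 0.187 to 0.308 FPKM, so a gene listed at 0 lay below about that level. Mitochondrially encoded genes took 8.67% and 11.5% of FPKM in the thymic ETP libraries and 12.1% to 16.6% in DN2. Across the 17416 genes tested, Pearson correlations of log2(FPKM + 1) were 0.960 between the thymic ETP libraries, 0.944 to 0.952 among DN2 libraries and 0.926 to 0.937 between the groups. These libraries share their protocol and the genes are not independent replicates.

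The defining transcripts went against the thymic ETP label. Il2ra stood at 157 and 135 FPKM in the thymic ETP libraries and at 224, 235 and 192 FPKM in DN2 libraries 1, 2 and 3, whereas the mean of 3 natural bone marrow ETP libraries was 0.0143 FPKM and that of 3 DN1 libraries 3.76 FPKM. Bcl11b was at 150 and 164 FPKM under the thymic ETP label and at 179, 115 and 155 FPKM under DN2. Kit was at 12.3 and 8.08 FPKM against 3.92, 13.5 and 1.81 FPKM, with a bone marrow ETP mean of 33.1 FPKM. The libraries labelled thymic ETP therefore held Il2ra and Bcl11b transcripts at levels that overlapped or neared those of DN2, with little Kit, and they are called below by their label only. Neither Il2ra (log2 fold change 0.57, 95% interval -0.06 to 1.20, adjusted p = 0.358) nor Bcl11b (-0.09, interval -0.54 to 0.36, adjusted p = 1.00) nor Kit (-0.91, interval -1.89 to 0.07, adjusted p = 0.335) passed the limma test.

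Under the DN2 label Il2ra and Thy1, a surface protein of T lineage cells, were high, but Kit and Cd44 were low. Thy1 was at 242 and 249 FPKM in the thymic ETP libraries and at 380, 483 and 401 FPKM in DN2. Like Il2ra, it did not pass the limma test (adjusted p = 0.102), so neither gene set the DN2 libraries apart. Cd44 fell from 9.34 and 13.4 FPKM to 2.21, 7.26 and 0.718 FPKM (log2 fold change -1.77, adjusted p = 0.00269). Its call was lost without thymic ETP library 2 (adjusted p = 0.0976), without DN2 library 3 (adjusted p = 0.0734) and with a pseudocount of 0.1 (adjusted p = 0.0796). Cd44 was listed at 0 in both DN3 libraries. DN2 library 3 had the lowest Kit and Cd44 and the highest Ptcra of the 3, and it correlated with the mean of the DN3 libraries (r = 0.961) as closely as with the mean of the other DN2 libraries (r = 0.962). Of the co-receptor transcripts, Cd4 and Cd8a stayed at or below 2.35 FPKM in all 5 libraries, whereas Cd8b1 was listed at 0 in both thymic ETP libraries and was at 3.30, 27.5 and 5.92 FPKM in DN2 (adjusted p = 8.25e-07).

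**Figure D1:**
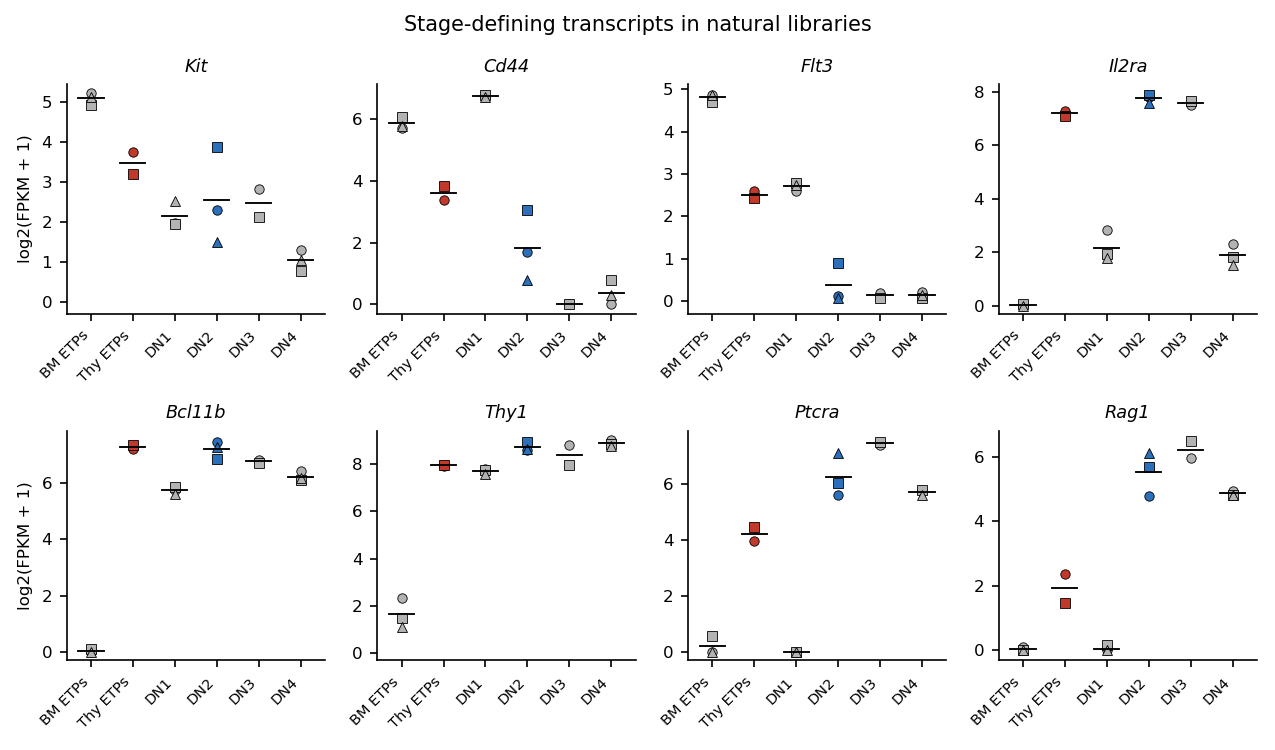
Levels of 8 stage-defining transcripts, as log2(FPKM + 1), in every library of 6 natural groups; marker shape gives the replicate number, the bar is the mean, red is the thymic ETP label, blue is DN2 and grey the other groups. Il2ra and Bcl11b in the thymic ETP libraries sit near DN2 and far above bone marrow ETP, while Kit, Cd44 and Flt3 sit below bone marrow ETP.

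DN2 library 2 stood apart in other genes. By a count made after the values were seen, 43 genes had at least 20 FPKM there and over 5 times their level in each of the other 4 libraries, against 18 each for DN2 libraries 1 and 3. They include Txk, a kinase of T cells (28.5 FPKM there and 0.452 to 1.72 FPKM elsewhere), Pou2af1, a coactivator of octamer factors (60.0 FPKM against 0.346 to 1.47) and Fcer1g, the Fc receptor gamma chain (163 FPKM against 3.16 to 29.6). Sex-linked transcripts also differed by group. Xist, made from the inactive X chromosome, was at 7.95 and 6.73 FPKM in the thymic ETP libraries and at 1.78, 0.0850 and 0.236 FPKM in DN2. The Y-linked Eif2s3y was listed at 0 in both thymic ETP libraries and was at 41.7, 4.25 and 76.9 FPKM in DN2, so the sex of the source animals and the stage cannot be told apart.

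Of 17416 genes tested, 1161 (6.67%) passed an adjusted p of 0.05 in limma's moderated test, 522 higher in DN2 (3.00%) and 639 lower (3.67%), while 3110 had an unadjusted p below 0.05. The shares of 3.00% higher and 3.67% lower are the ones to set beside each list count below. The filter used all 75 libraries, so genes absent from these 5 count in those shares and lower them. With the filter on the 5 libraries, 574 of 11484 genes tested were higher and 656 lower, which are larger shares. Lists of genes expressed here therefore stand out less than the 3.00% and 3.67% make them appear. The libraries of the groups did not overlap for 1079 of the 1161, or 92.9%, and for 29.6% of all genes tested. The spread came from all 75 distinct libraries of the series. With the 5 libraries fitted alone 119 genes passed, 36 higher and 83 lower, and 13 of the 127 called genes named here kept their call, among them H2-Aa, H2-Eb1, Batf3, Clec9a, Itgax, Csf2rb and Satb1. The count was 676 without thymic ETP library 1, 529 without thymic ETP library 2 and 769 without DN2 library 3, and it was 1043 without DN2 library 2. With every library scaled to the same total the split became 326 higher and 812 lower, as the median of the 8249 genes with a mean of at least 5 FPKM moved from 0.00 to -0.14 on the log2 scale.

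**Figure D2:**
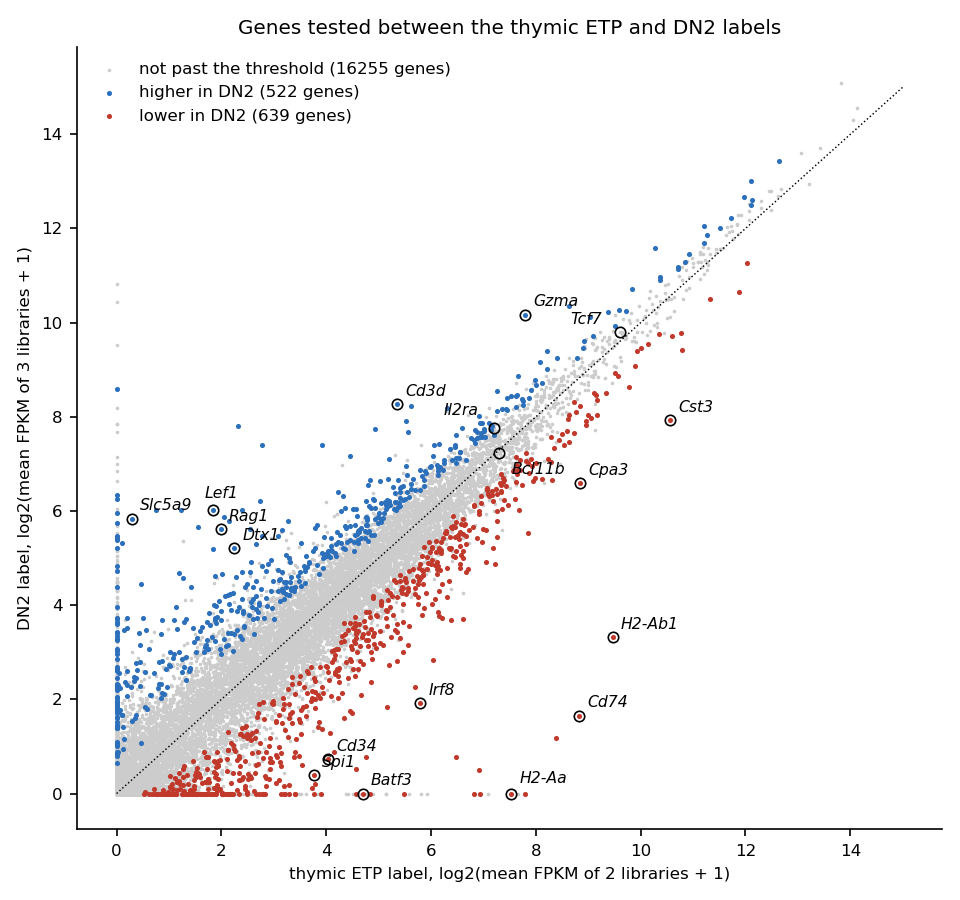
Mean level in the DN2 libraries (vertical) against the mean in the thymic ETP libraries (horizontal), both as log2(mean FPKM + 1), for the 17416 genes tested, with the dotted line marking equal levels. The 522 genes higher in DN2 are blue, the 639 lower are red, and circled genes are named in the text; H2-Aa, Cd74 and Batf3 are among the genes far below the line.

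The lowest fold changes included genes of antigen presentation by major histocompatibility complex (MHC) class II and of dendritic cells. MHC class II is a pair of an alpha and a beta chain that presents peptides on dendritic cells, macrophages and B cells. H2-Aa is an alpha chain, and H2-Ab1 and H2-Eb1 are beta chains. Cd74 is the invariant chain that chaperones them. The promoters of these genes carry a conserved module of boxes that recruits the coactivator Ciita, and its last element, the Y box, holds an inverted CCAAT. The 150 bases before the transcription start are shown for the 2 class II chain genes found in the RefSeq promoter table (GRCm38.p6), because both genes fell from over 100 FPKM to under 2 FPKM. Capitals mark the word CTGATTGG, a Y box core chosen after the values were seen. H2-Aa is chr17:34287824-34287973 on the minus strand and H2-Eb1 is chr17:34305717-34305866 on the plus strand.
H2-Aa: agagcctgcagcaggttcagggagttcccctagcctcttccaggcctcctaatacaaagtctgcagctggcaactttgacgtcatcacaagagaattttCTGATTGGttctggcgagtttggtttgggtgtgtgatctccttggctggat
H2-Eb1: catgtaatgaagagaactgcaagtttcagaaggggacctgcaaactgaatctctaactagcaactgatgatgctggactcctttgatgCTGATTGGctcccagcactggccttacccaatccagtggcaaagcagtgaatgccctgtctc
The word starts 51 bases before the start of H2-Aa and 62 bases before that of H2-Eb1. On either strand it was in 4.10% of the 32851 promoter windows of 300 bases in the table, and in 3 of the 22 windows of the dendritic and MHC class II list, those of H2-Aa, H2-Eb1 and Irf8. A match is a description of the letters only.

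H2-Aa was at 139 and 227 FPKM in the thymic ETP libraries and was listed at 0 in all 3 DN2 libraries (adjusted p = 2.55e-12). H2-Eb1 fell from 233 and 435 FPKM to 1.47, 1.44 and 0.860 FPKM (log2 fold change -7.16 ± 0.77 SE, adjusted p = 5.30e-10). Cd74 fell from 342 and 568 FPKM to 4.92, 0.419 and 1.10 FPKM (-7.41 ± 0.59 SE, adjusted p = 2.29e-14). Both thymic ETP libraries stood far above every DN2 library for these genes. H2-Ab1 was at 507 and 905 FPKM and then at 5.70, 14.6 and 6.64 FPKM (-6.19 ± 1.06 SE, adjusted p = 4.26e-05). The peptide-editing chain H2-DMb1 went from 31.3 and 48.3 FPKM to 13.5, 2.13 and 2.55 FPKM (adjusted p = 0.00304), a call lost without thymic ETP library 2 (adjusted p = 0.0870) and with a pseudocount of 0.1 (adjusted p = 0.133).

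Genes of conventional type 1 dendritic cells, the subset that takes up dead cells and cross-presents, moved the same way. Their transcription factor Batf3 was at 25.9 and 23.9 FPKM in the thymic ETP libraries and listed at 0 in every DN2 library (adjusted p = 1.79e-13). The dead-cell receptor Clec9a was at 8.02 and 8.41 FPKM and listed at 0 in DN2 (adjusted p = 5.55e-14). Irf8, the factor that works with Batf3 and also specifies monocytes, fell from 30.2 and 78.7 FPKM to 1.57, 3.21 and 3.57 FPKM (-3.76 ± 0.55 SE, adjusted p = 1.45e-06). The integrin Itgax (CD11c) fell from 3.93 and 5.07 FPKM to 0, 0.0538 and 0.140 FPKM (adjusted p = 1.87e-12). The chemokine receptor Xcr1 went from 2.48 and 6.73 FPKM to 0, 0 and 0.0630 FPKM, and that call was lost without thymic ETP library 2 (adjusted p = 0.0515). The protease inhibitor Cst3 fell from 1323 and 1707 FPKM to 278, 258 and 191 FPKM (adjusted p = 6.13e-09).

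In the dendritic and MHC class II list, 14 of 25 members tested were lower in DN2 and none higher, with a median log2 fold change of -1.67 beside 0.00 over all genes tested. Without 1 library at a time 10 to 12 members were lower. The calls of H2-DMa, Zbtb46 and the protease Ctsh were among those lost, H2-DMa and Zbtb46 without any 1 of the 5 libraries and Ctsh without thymic ETP library 1 or DN2 library 3 (adjusted p from 0.0515 to 0.368 over all such losses in the list). The summed level of the list was 2829 and 4259 FPKM in the thymic ETP libraries and 329.8 to 448.4 FPKM in DN2. Siglech and Cd209a, markers of plasmacytoid and of monocyte-derived dendritic cells, were listed at 0 in all 5 libraries. Other genes of plasmacytoid cells were present and did not pass, with 24.5 to 60.9 FPKM of Bst2, 8.67 to 23.8 FPKM of Tcf4 and 2.88 to 19.0 FPKM of Spib. In bulk RNA, fewer cells of a type and less RNA per cell cannot be told apart, and whether dendritic cells were in the thymic ETP sort was not tested. Natural bone marrow ETP libraries had a mean of 132.5 ± 29.3 FPKM of H2-Aa and 18.2 ± 5.08 FPKM of Batf3 (SD, n = 3).

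**Figure D3:**
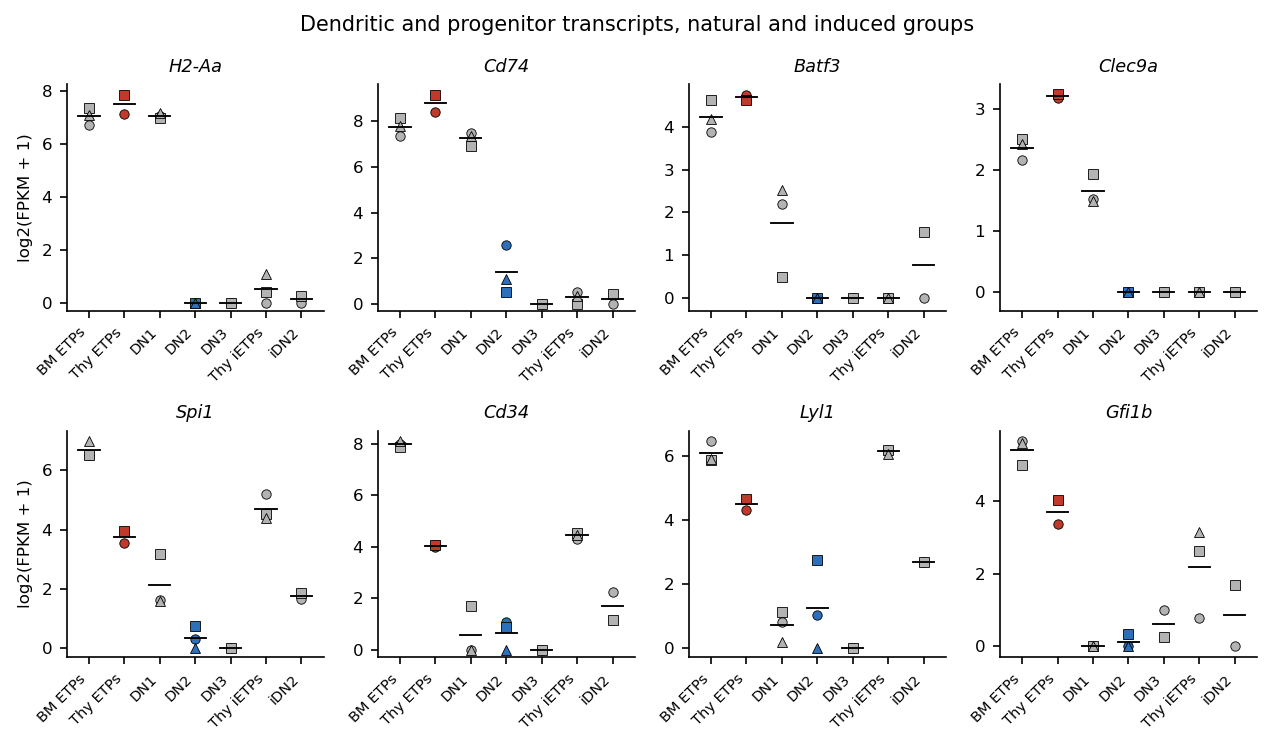
Levels of 4 dendritic or MHC class II transcripts (top) and 4 progenitor transcripts (bottom), as log2(FPKM + 1), in every library of 5 natural and 2 induced groups; shapes give replicate numbers, bars are means, red is the natural thymic ETP label, blue natural DN2 and grey the other groups. H2-Aa, Batf3 and Clec9a are high in natural bone marrow and thymic ETP and at or near 0 in induced thymic ETP, while Spi1, Cd34 and Lyl1 are present in both thymic ETP groups.

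Of 22 progenitor transcription factors, 7 fell and none rose, with a median of -0.46. Spi1 encodes PU.1, the factor that sustains myeloid and dendritic fates, and it went from 10.7 and 14.5 FPKM to 0.254, 0.669 and 0 FPKM (-3.39 ± 0.43 SE, adjusted p = 3.33e-08). Lyl1, a basic helix-loop-helix factor of stem and progenitor cells, went from 19.0 and 24.3 FPKM to 1.02, 5.77 and 0 FPKM (-3.23 ± 0.37 SE, adjusted p = 2.24e-09). Gfi1b, a repressor of stem, erythroid and megakaryocyte cells, went from 9.35 and 15.3 FPKM to 0, 0.259 and 0 FPKM (adjusted p = 2.88e-08). No DN2 library reached the lower thymic ETP library for any of these factors. The groups did not overlap for 92.9% of all called genes either, and for 29.6% of all genes tested. Nfe2 and Hoxa7 fell as well, with calls lost with a pseudocount of 0.1 (adjusted p from 0.119 to 0.246 with that of Tal1). With the 5 libraries fitted alone all 7 calls were lost, those of Spi1, Lyl1 and Gfi1b included (adjusted p from 0.0623 to 0.637). Nfe2 and Hoxa7 lost theirs under no other alternative. The calls of Hhex and Tal1 were lost without thymic ETP library 2 (adjusted p from 0.117 to 0.202) or DN2 library 3 (adjusted p from 0.154 to 0.332), and that of Tal1 also without thymic ETP library 1 (adjusted p = 0.160). Factors that did not pass include Myb, at 126 and 84.3 FPKM against 145, 110 and 130 FPKM, and Bcl11a, at 5.69 and 5.93 FPKM against 4.36, 3.11 and 2.12 FPKM.

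Among progenitor surface proteins, the sialomucin Cd34 fell from 15 and 15.5 FPKM to 1.13, 0.827 and 0 FPKM (-3.37 ± 0.32 SE, adjusted p = 1.12e-11). The cytokine receptor Flt3, which marks multipotent and early lymphoid progenitors, fell from 5.09 and 4.35 FPKM to 0.0907, 0.861 and 0.0530 FPKM (-2.15 ± 0.37 SE, adjusted p = 5.10e-05). Csf2rb, the shared beta chain of the receptors for interleukin 3, interleukin 5 and GM-CSF, was at 3.02 and 3.08 FPKM and listed at 0 in every DN2 library (adjusted p = 9.98e-08). Together with Cd44 and Cd48, 5 of 17 members were lower and none higher, with a median of -0.69. Cd48 went from 359 and 379 FPKM to 218, 170 and 120 FPKM, and its call was lost without thymic ETP library 1 (adjusted p = 0.0748), thymic ETP library 2 (adjusted p = 0.121) or DN2 library 3 (adjusted p = 0.103) and with a pseudocount of 0.1 (adjusted p = 0.0985).

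In the myeloid list 7 of 25 members were lower and none higher, while its summed level was 248.8 and 256.9 FPKM against 31.5 to 201.9 FPKM. Mpo, the granule peroxidase, was at 12.3 and 9.02 FPKM and then at 1.55, 0 and 0 FPKM (adjusted p = 6.85e-05). Ncf1, a subunit of the phagocyte oxidase, fell from 7.46 and 7.85 FPKM to 0.733, 0.0824 and 0.965 FPKM (adjusted p = 1.64e-05). Of the 25 members 6 were listed at 0 in all 5 libraries, among them Elane, Prtn3, S100a8 and S100a9, which define granulocytes and their precursors. Tyrobp, the adapter of many innate receptors, went from 102 and 90.4 FPKM to 26.1, 8.94 and 0.857 FPKM. Its call was lost without thymic ETP library 1 (adjusted p = 0.141), thymic ETP library 2 (adjusted p = 0.131) or DN2 library 3 (adjusted p = 0.201) and with a pseudocount of 0.1 (adjusted p = 0.175). Cpa3, a protease made by mast cells and early thymocytes, fell from 454 and 457 FPKM to 182, 95.3 and 9.51 FPKM (-3.00 ± 0.65 SE, adjusted p = 0.00126), a call lost without DN2 library 3 (adjusted p = 0.0723) and with a pseudocount of 0.1 (adjusted p = 0.0970). Mast cell proteases Mcpt1, Mcpt4, Cma1 and Tpsb2, which were not tested, were listed at 0 in all 5.

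Of 24 natural killer and innate genes, 1 rose and 4 were lower (4.2% and 16.7%, beside 3.00% and 3.67% of all genes tested). The riser was Gzma, the protease granzyme A, at 241 and 203 FPKM in the thymic ETP libraries and at 1027, 763 and 1665 FPKM in DN2 (2.30 ± 0.49 SE, adjusted p = 0.00113). The chemokine Ccl5, the pore protein Prf1, Klrk1 and Gzmb were lower, and each of these calls was lost without at least 1 library (adjusted p from 0.0764 to 0.590): Ccl5 without thymic ETP library 2, Prf1 without thymic ETP library 1, Klrk1 without thymic ETP library 2, DN2 library 2 or DN2 library 3, and Gzmb without either thymic ETP library, DN2 library 1 or DN2 library 3. In the B lineage list 2 of 20 were lower and 1 higher (10% and 5%, beside 3.67% and 3.00% of all genes tested). Igkc, the kappa light chain constant region, was at 127 and 49.6 FPKM and then at 0, 2.15 and 0 FPKM, a call lost without thymic ETP library 1 (adjusted p = 0.108). Of the 20 members 7 were listed at 0 in all 5 libraries, among them the B cell factors Ebf1 and Pax5 and the receptor chain Cd79a, while others were present in every library, with 52.6 to 90.1 FPKM of Cd79b and 135 to 358 FPKM of Ighm. The 1 B lineage gene that was higher, Pou2af1, rested on DN2 library 2 (adjusted p = 0.507 without it).

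Among transcription factors of T cell identity, Tcf7, Gata3 and Bcl11b, the core factors of commitment, did not pass. Tcf7 was at 809 and 750 FPKM against 889, 875 and 916 FPKM (log2 fold change 0.20, interval -0.18 to 0.57, adjusted p = 0.719). Gata3 was at 64.1 and 60.0 FPKM against 96.7, 87.4 and 70.5 FPKM (0.43, interval -0.04 to 0.91, adjusted p = 0.346). Both were high under either label. Lef1, the partner of Tcf7 in Wnt and T cell gene control, rose from 2.64 and 2.47 FPKM to 22.6, 72.9 and 95.4 FPKM (3.96 ± 0.35 SE, adjusted p = 7.99e-13). Satb1, a chromatin organizer of thymocytes, rose from 121 and 117 FPKM to 271, 249 and 258 FPKM (1.11 ± 0.24 SE, adjusted p = 0.00129).

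The list of T identity factors had 5 of 26 members higher in DN2 and none lower, with a median of 0.24. The other risers were Sox4, Ets1 and Tcf12. All 3 calls were lost without thymic ETP library 2 (adjusted p from 0.154 to 0.394), and those of Sox4 and Ets1 also without DN2 library 1 or DN2 library 3 (adjusted p from 0.0586 to 0.110). Sox4 was further lost without thymic ETP library 1 (adjusted p = 0.0692), and Ets1 and Tcf12 with equal totals (adjusted p from 0.112 to 0.157).

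In the Notch pathway, a receptor cleaved on ligand contact releases a fragment that acts with the DNA-binding protein RBPJ. The receptor Notch1 did not pass, at 42.8 and 37.8 FPKM against 52.1, 42.3 and 66.6 FPKM (interval -0.12 to 0.89, adjusted p = 0.483). Its target Hes1 was at 13.1 FPKM in both thymic ETP libraries and at 52.7, 21.0 and 39.9 FPKM in DN2, above them in every library but with an adjusted p of 0.0896. Dtx1, a Notch-induced ubiquitin ligase, rose from 5.03 and 2.47 FPKM to 15.4, 36.8 and 56.1 FPKM (2.84 ± 0.45 SE, adjusted p = 9.25e-06). Heyl, a repressor of the Hes family, was listed at 0 in both thymic ETP libraries and was at 0.951, 6.09 and 0.618 FPKM in DN2 (adjusted p = 6.85e-05). Ptcra, the pre-T cell receptor alpha chain and a Notch target, rose from 14.5 and 20.9 FPKM to 48.2, 64.3 and 138 FPKM (2.06 ± 0.57 SE, adjusted p = 0.0156).

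Notch3 also passed, so 4 of 26 list members were higher and none lower. All 4 calls were lost with the 5 libraries fitted alone (adjusted p from 0.251 to 0.618). The calls of Ptcra and Notch3 were lost without thymic ETP library 1 or DN2 library 3 (adjusted p from 0.130 to 0.247) and with a pseudocount of 0.1 (adjusted p from 0.226 to 0.231). That of Ptcra was also lost without thymic ETP library 2 (adjusted p = 0.0646), and that of Notch3 without DN2 library 1 (adjusted p = 0.0656) and with equal totals. The RBPJ word GTGGGAA, searched on both strands, was in 3 of 25 promoter windows of the list, those of Hes5, Lfng and Psen2, and in 6.38% of all windows. Those 25 windows cover 20 of the 26 list genes. Hes1 and Heyl had no promoter window and were not searched.

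The CD3 chains carry signals of the T cell receptor into the cell. Cd3d rose from 48.5 and 31.3 FPKM to 236, 239 and 451 FPKM (2.89 ± 0.23 SE, adjusted p = 2.29e-14). Cd3g rose from 1073 and 749 FPKM to 2089, 1254 and 1680 FPKM (0.87 ± 0.18 SE, adjusted p = 0.000584), a call lost without thymic ETP library 2 (adjusted p = 0.130). Cd3e was at 17.7 and 9.95 FPKM against 20.8, 23.1 and 28.2 FPKM and missed the threshold (interval 0.23 to 1.37, adjusted p = 0.0808). The co-stimulatory receptor Cd28 rose from 3.43 and 2.59 FPKM to 34.0, 12.6 and 26.8 FPKM (2.57 ± 0.31 SE, adjusted p = 8.89e-09). Themis, a signaling adapter of thymocyte selection, rose from 18.5 and 13.5 FPKM to 40.8, 40.8 and 44.0 FPKM (1.35 ± 0.22 SE, adjusted p = 2.10e-05). No DN2 library overlapped the thymic ETP libraries for these risers, which also held for 92.9% of all called genes and 29.6% of all genes tested.

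Over the list of CD3 and T receptor signaling genes, 7 of 31 were higher and 3 lower. With the 5 libraries fitted alone none of the 31 passed. The phosphatase Ptprc (CD45) was among the risers, lost without thymic ETP library 2, DN2 library 1 or DN2 library 3 (adjusted p from 0.0516 to 0.489) and with equal totals (adjusted p = 0.223). The 3 that fell were Cd5, Trat1 and Themis2. Cd5, an inhibitory receptor whose level follows receptor signal strength, was at 9.68 and 5.36 FPKM and then at 1.74, 0.336 and 0.875 FPKM (-2.12 ± 0.37 SE, adjusted p = 5.69e-05). The call of Themis2 was lost without thymic ETP library 2 (adjusted p = 0.132) or DN2 library 3 (adjusted p = 0.120), and that of Trat1 without any 1 library but DN2 library 1 (adjusted p from 0.0802 to 0.169), and both with a pseudocount of 0.1.

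Rag1, one subunit of the recombinase that cuts receptor gene segments, rose from 4.14 and 1.78 FPKM to 26.7, 50.4 and 67.4 FPKM (3.61 ± 0.35 SE, adjusted p = 1.34e-11). Its partner Rag2 was at 18.2 and 21.6 FPKM against 20.5, 32.7 and 41.7 FPKM (interval -0.33 to 1.51, adjusted p = 0.599). Dntt, which adds untemplated bases at the joints, was above 1000 FPKM in all 5 libraries. In the recombination list 2 of 12 were higher and none lower. The second was Xrcc6, the Ku70 subunit of end joining, whose call was lost without thymic ETP library 2 (adjusted p = 0.0626).

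V segments, a class described after its values were seen, encode the variable part of the receptor chains. Of 19 beta V segments tested, 14 were higher in DN2 and none lower, beside 3.00% and 3.67% of all genes tested. With the 5 libraries fitted alone 3 were higher. The FPKM of the 19 segments summed to 105.9 and 102.5 in the thymic ETP libraries and to 418.0, 1390 and 1342 in DN2. Trbv14 was listed at 0 in both thymic ETP libraries and was at 48.8, 98.5 and 92.0 FPKM in DN2 (adjusted p = 3.86e-11). Trbv15 was also listed at 0 and then at 48.0, 39.2 and 43.1 FPKM (adjusted p = 4.59e-08), and Trbv31 was listed at 0 and then at 20.8, 21.7 and 16.9 FPKM (adjusted p = 3.53e-09). Trbv13-2 was present under both labels, at 97.2 and 65.6 FPKM against 139, 98.0 and 177 FPKM, and did not pass (adjusted p = 0.492). Without thymic ETP library 1 the count was 9 and without DN2 library 3 it was 12.

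DN2 library 2 owed 657 FPKM of its beta sum to Trbv26, which was at 0 to 13.0 FPKM in the other 4 libraries and lost its call without that library or without thymic ETP library 1 (adjusted p = 0.332 and 0.487). Of 7 gamma V segments, 4 were higher and none lower, and none passed with the 5 libraries fitted alone. Tcrg-V1 rose from 5.09 and 6.50 FPKM to 25.0, 303 and 175 FPKM (adjusted p = 0.00100). The gamma count was 1 without thymic ETP library 2 and with a pseudocount of 0.1, and 2 without DN2 library 3. None of 31 alpha or delta V segments passed. V segments are short and resemble each other, so their FPKM depend on how multiply mapped reads were assigned, and germline and rearranged transcripts cannot be told apart. The constant regions Trbc1 and Trbc2 did not pass, with 1677 and 1524 FPKM of Trbc1 against 1541, 1364 and 724 FPKM.

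Among cytokine receptors, 2 of 23 rose and 2 fell (8.7% each, beside 3.00% and 3.67% of all genes tested). The transforming growth factor beta receptor Tgfbr1 rose from 9.41 and 8.65 FPKM to 16.4, 24.8 and 28.3 FPKM (1.23 ± 0.28 SE, adjusted p = 0.00199). Il9r was at 0 and 0.0386 FPKM and then at 1.63, 6.89 and 3.32 FPKM (adjusted p = 0.00170). Il7r, the survival receptor of early thymocytes, was at 51.1 and 70.3 FPKM against 40.0, 114 and 59.5 FPKM and did not pass. Il4ra and Crlf2 were lower, with calls lost without thymic ETP library 2 (adjusted p from 0.143 to 0.257), Il4ra also without thymic ETP library 1 (adjusted p = 0.0821) or DN2 library 3 (adjusted p = 0.391) and Crlf2 without DN2 library 2 (adjusted p = 0.0768).

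Of 23 homing and adhesion genes tested, 1 was higher and 6 lower. Ccr9, the chemokine receptor that draws progenitors to thymic epithelium, rose from 9.15 and 7.71 FPKM to 33.5, 15.3 and 48.2 FPKM (1.69 ± 0.36 SE, adjusted p = 0.00129), with a call lost with a pseudocount of 0.1 (adjusted p = 0.144). Itgb7, Selplg, Cxcr3, Cd44, Itgb3 and Ptk2b were lower, and all 6 calls were lost without thymic ETP library 2 (adjusted p from 0.0501 to 0.244). Selplg, the selectin ligand that progenitors use to enter the thymus, was at 565 and 538 FPKM against 391, 385 and 309 FPKM. Of these 6 calls, 5 were lost without DN2 library 3, 3 without thymic ETP library 1 and 2 without DN2 library 2.

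Of 18 survival and death genes tested, 2 rose and 1 fell (11.1% and 5.6%, beside 3.00% and 3.67% of all genes tested). Mcl1, an anti-apoptotic BCL2 family protein, went from 47.4 and 43.8 FPKM to 131, 72.4 and 118 FPKM (1.17 ± 0.20 SE, adjusted p = 4.46e-05). Bmf, a pro-apoptotic member, went from 1.51 and 0.894 FPKM to 5.41, 12.2 and 26.0 FPKM (2.60 ± 0.45 SE, adjusted p = 4.46e-05). Casp8 was lower, and its call was lost without thymic ETP library 1 (adjusted p = 0.0553) or thymic ETP library 2 (adjusted p = 0.0848). In the p53 response list 3 of 16 were higher, Ccng1, Trp53inp1 and Gadd45a, and all 3 calls were lost without thymic ETP library 1 (adjusted p from 0.0593 to 0.423).

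Of 28 genes of mitosis, 9 fell and none rose, and all 28 log2 fold changes were negative, with a median of -1.09. With the 5 libraries fitted alone all 9 calls were lost (adjusted p from 0.081 to 0.327). The checkpoint kinase Bub1b fell from 96.5 and 104 FPKM to 21.9, 32.2 and 21.1 FPKM (-1.98 ± 0.42 SE, adjusted p = 0.000931). The kinase Melk fell from 15 and 17.1 FPKM to 4.48, 3.46 and 1.76 FPKM (-2.06 ± 0.43 SE, adjusted p = 0.000948), and the kinesin Cenpe from 8.19 and 7.87 FPKM to 2.93, 2.08 and 2.45 FPKM (-1.38 ± 0.29 SE, adjusted p = 0.000903), the last lost with a pseudocount of 0.1 (adjusted p = 0.0876). Mki67, the proliferation antigen, went from 39.0 and 29.8 FPKM to 10.5, 14.5 and 11.7 FPKM, a call lost without thymic ETP library 1 and with a pseudocount of 0.1. Without 1 library at a time 3 to 7 members were lower, with 3 calls kept without thymic ETP library 1 (adjusted p of the others from 0.0584 to 0.507).

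In the DNA replication list 7 of 28 were lower and 1 higher. The helicase subunit Mcm5 went from 299 and 323 FPKM to 179, 200 and 185 FPKM (-0.72 ± 0.19 SE, adjusted p = 0.00934), and Uhrf1, which maintains DNA methylation, from 13.9 and 10.8 FPKM to 36.4, 36.1 and 31.9 FPKM (1.43 ± 0.37 SE, adjusted p = 0.0103). None of these 8 calls held without thymic ETP library 2 (adjusted p from 0.107 to 0.238), and 2 held without thymic ETP library 1, those of Tk1 and Uhrf1.

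Of 22 genes of glycolysis and nutrient uptake, 2 were higher and 3 lower. The glycolytic enzyme Eno1 fell from 94.4 and 80.6 FPKM to 27.0, 38.4 and 37.9 FPKM (-1.33 ± 0.21 SE, adjusted p = 7.58e-06), and pyruvate kinase Pkm from 227 and 234 FPKM to 112, 154 and 122 FPKM (-0.84 ± 0.17 SE, adjusted p = 0.000762). The lactate dehydrogenase subunit Ldhb rose from 20.6 and 17.4 FPKM to 53.3, 85.9 and 98.1 FPKM (1.96 ± 0.39 SE, adjusted p = 0.000410), a call lost with a pseudocount of 0.1 (adjusted p = 0.0728), while Ldha did not pass. The call of the lactate transporter Slc16a1 was lost without thymic ETP library 2, and that of Pfkl without each library but DN2 library 3 (adjusted p from 0.0567 to 0.179).

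Of 13 mitochondrially encoded genes, 6 rose and none fell, with a median of 0.78. The complex I subunit mt-Nd2 was at 1354 and 1118 FPKM and then at 2822, 3102 and 3247 FPKM (1.31 ± 0.26 SE, adjusted p = 0.000378). Without thymic ETP library 2 the calls of mt-Nd1, mt-Nd3, mt-Nd4 and mt-Nd6 were lost (adjusted p from 0.135 to 0.313), and that of mt-Nd6 also without thymic ETP library 1, DN2 library 1 or DN2 library 2 (adjusted p from 0.0624 to 0.0822). With quantile normalization mt-Cytb and mt-Nd4 were lost (adjusted p from 0.0898 to 0.0948), and with equal totals mt-Nd6 (adjusted p = 0.0947). The share of FPKM from these genes, given above, moved with the groups, and its part in the result was not tested.

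**Figure D4:**
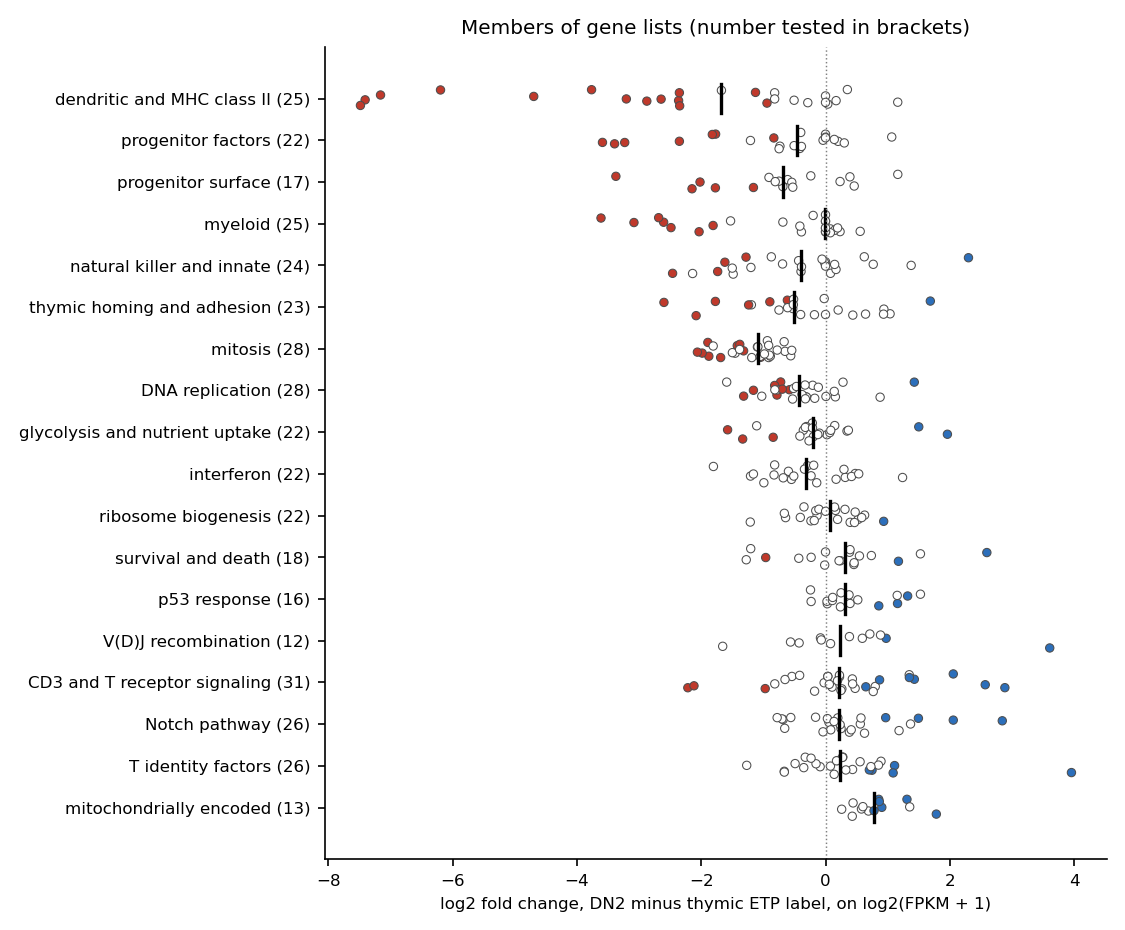
Log2 fold changes (DN2 minus the thymic ETP label, on the log2(FPKM + 1) scale) of the members of 18 gene lists; filled points passed the test, red lower and blue higher in DN2, open points did not, and bars are list medians. The dendritic and MHC class II list holds Cd74 at -7.41 and the mitosis list lies wholly below 0, while the T identity factors run from -1.27 to 3.96, with Lef1 at the upper end.

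In the mature thymocyte list 1 of 22 was higher and 4 lower, in the gamma delta list none of 12 was higher and 2 lower, and in the list of E proteins and their inhibitors 1 of 8 was higher and 2 lower. Of the ribosome biogenesis list 1 of 22 was higher, with a median of 0.07 that became -0.07 with equal totals, where 1 member was lower and none higher, and of the immediate early and stress list 1 of 21 was higher and 1 lower, and of the erythroid and megakaryocyte list 1 of 13 was lower. Over all genes tested 3.00% were higher and 3.67% lower. The 1 higher member of the mature thymocyte (4.5%), ribosome biogenesis (4.5%) and stress (4.8%) lists lies near that share. None of 22 interferon genes and none of 8 thymic stroma genes passed by limma. Of 15 stromal genes 7 were listed at 0 in all 5 libraries, among them Krt5, Foxn1 and Pdgfra, while Epcam was at 8.35 to 56.8 FPKM, Pdgfrb at 4.96 to 15.2 FPKM, Ccl25 at 4.38 to 11.3 FPKM and Pecam1 at 8.22 to 12.6 FPKM.

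By fold change alone, among 805 genes that met the level and overlap criteria, the 12 lowest were H2-Aa, Cd74, H2-Eb1, Plbd1, H2-Ab1, Batf3, Mpeg1, Ifitm1, Irf8, Naaa, Haao and Tyrobp. Plbd1, a lysosomal phospholipase-like protein, fell from 93.1 and 147 FPKM to 0, 0.116 and 1.14 FPKM (-6.46 ± 0.66 SE, adjusted p = 8.30e-11), and Mpeg1, the pore protein perforin-2 of phagocytes, from 20.1 and 25.5 FPKM to 0.776, 0.0499 and 0.454 FPKM (-4.09 ± 0.41 SE, adjusted p = 4.10e-11). The 12 highest were Slc5a9, Eif2s3y, H2-Q2, Srsf9, Lef1, Sdf2l1, Rag1, Alyref, Thg1l, Unc5cl, Cd8b1 and Fam163b. Slc5a9, a sodium-coupled sugar transporter, went from 0.441 and 0 FPKM to 11.7, 52.9 and 104 FPKM (5.12 ± 0.51 SE, adjusted p = 4.27e-11), and the splicing factor Srsf9 from 1.09 and 2.78 FPKM to 50.4, 61.4 and 36.6 FPKM (4.14 ± 0.57 SE, adjusted p = 4.19e-07). The RNA export adapter Alyref went from 7.24 and 4.10 FPKM to 66.5, 71.6 and 82.9 FPKM (3.52 ± 0.71 SE, adjusted p = 0.000562). Without thymic ETP library 1 the call of Sdf2l1 was lost (adjusted p = 0.0567). With the 5 libraries fitted alone all 12 highest lost their calls (adjusted p from 0.0645 to 0.314). Of the 12 lowest, 9 lost theirs in that fit (adjusted p from 0.0595 to 0.402), and H2-Aa, H2-Eb1 and Batf3 kept theirs.

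The same step in Hoxb5-induced cells was set against the natural one by testing the difference of the changes. Of 17416 genes, 664 (3.81%) passed, 367 with a more positive change in induced cells (2.11%) and 297 with a more negative one (1.71%). The count was 375 without induced DN2 library 2 and 289 with the 4 groups fitted alone. For cell division, 22 of 28 mitosis genes had a more positive change in induced cells and none a more negative one, and 18 to 23 did without 1 library at a time, 14 with the 4 groups fitted alone and 12 with a pseudocount of 0.1. Mki67 had a log2 change of 1.43 in induced and -1.42 in natural cells (difference 2.85 ± 0.46 SE, adjusted p = 2.54e-05), and Cenpe had 1.53 and -1.38 (difference 2.91 ± 0.41 SE, adjusted p = 1.13e-06). Of 28 replication genes 11 had a more positive change in induced cells, and 6 did without thymic ETP library 2.

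The dendritic and MHC class II change also differed, in 10 of 25 genes. H2-Aa was at 183 ± 62.6 FPKM (SD, n = 2) in natural and 0.488 ± 0.580 FPKM (SD, n = 3) in induced thymic ETP libraries (difference of the changes 7.11 ± 0.97 SE, adjusted p = 5.49e-07). Cd74 differed by 7.35 ± 0.83 SE (adjusted p = 4.33e-09). Spi1 and Lyl1 had log2 changes of -2.93 and -3.46 in induced cells against -3.39 and -3.23 in natural cells, and neither difference passed (adjusted p = 0.903 and 1.00).

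Among genes that rose in natural cells, Lef1 had changes of 3.64 in induced and 3.96 in natural cells and Rag1 of 2.73 and 3.61, without a difference that passed (adjusted p = 0.955 and 0.446). Cd3d rose more in induced cells, from 0.739 ± 0.840 FPKM (SD, n = 3) to 122 ± 0.896 FPKM (SD, n = 2), with a difference of 3.37 ± 0.32 SE (adjusted p = 3.94e-11), and Cd3g differed by 3.90 ± 0.25 SE (adjusted p = 7.55e-18). Dtx1 went the other way, with -1.64 in induced and 2.84 in natural cells (difference -4.48 ± 0.64 SE, adjusted p = 1.50e-06), and so did Bmf, with -0.80 and 2.60 (difference -3.40 ± 0.63 SE, adjusted p = 0.000271). The differences of Dtx1, Bmf and Cd3d did not pass with the 4 groups fitted alone. Xist was at 12 and 11.3 FPKM in induced DN2 and at 2.44 to 5.28 FPKM in induced thymic ETP libraries, where Eif2s3y was at 24.4 to 38.8 FPKM, so sex-linked transcripts moved with the induced groups too and their part was not tested.

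**Figure D5:**
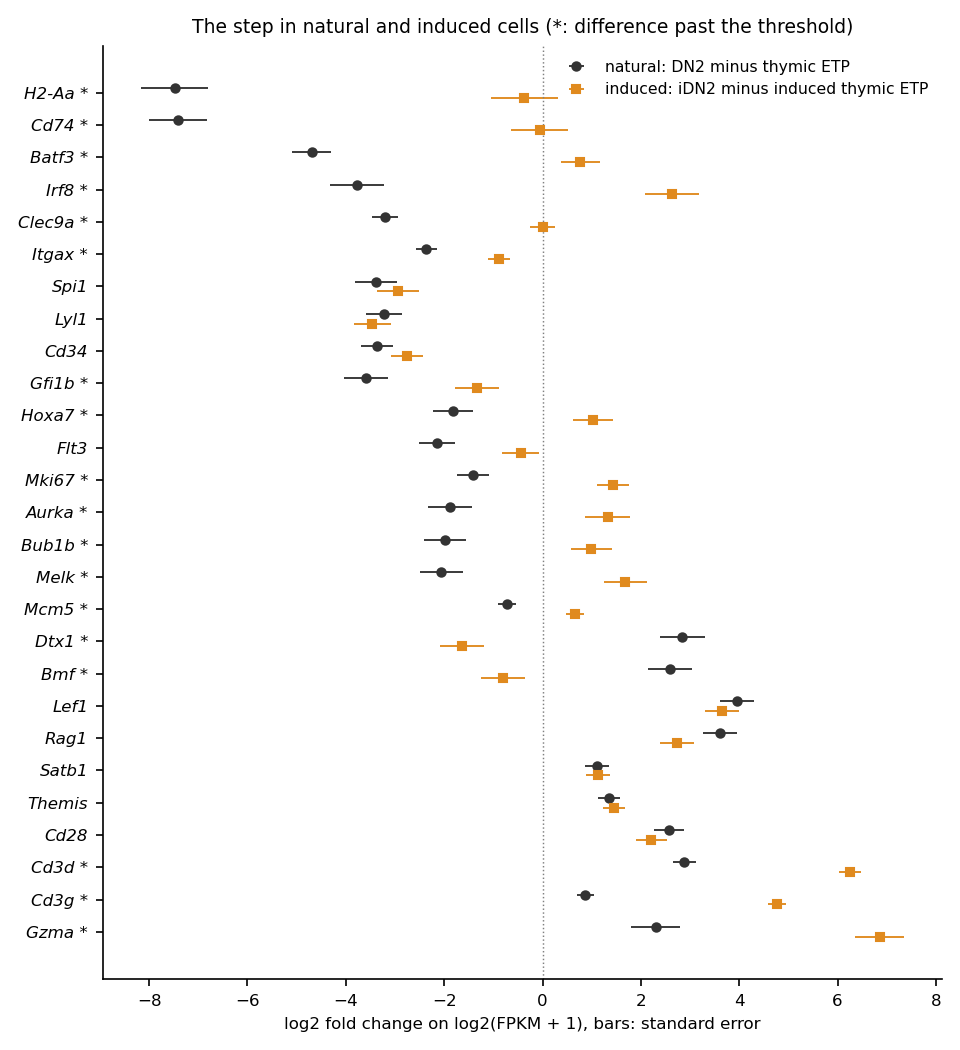
Log2 fold changes from thymic ETP to DN2 in natural cells (circles) and Hoxb5-induced cells (squares) for 27 named genes, with bars of 1 standard error; an asterisk marks a difference between sources past the adjusted p of 0.05. Mitotic genes lie on opposite sides of 0, H2-Aa and Cd74 are far below 0 in natural cells and near 0 in induced cells, and Spi1, Lyl1, Cd34, Lef1, Satb1 and Themis lie close together.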

How the data were processed

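The authors deposited FPKM for 37980 genes in 76 libraries; bcl2fastq, TopHat, Cufflinks 2.2.1, Cuffnorm and build NCBIM37 are named, per the submitters' processing notes, and their settings are not given in the sources used here. Symbols came from GENCODE vM21 (86.7% of IDs matched). A pro/pre-B library with the same values as another was dropped, which left 75. The 17416 genes that reached 1 FPKM in 2 or more libraries were tested. On log2(FPKM + 1), which understates changes of low genes, limma 3.58.1 in R 4.3.3 fitted 24 group means (51 residual degrees of freedom, trend and robust), two-sided, with Benjamini-Hochberg adjustment and a threshold of 0.05. The code was tested on simulated data, with values floored at 0, as FPKM are. In a single random draw of that simulation 14.5% of calls at the threshold of 0.05 were false, and other draws can differ. Calls, including those near the threshold, are therefore less certain than their adjusted p states. The labels do not say that replicates were separate animals, so p-values measure the spread between libraries, which may be technical.

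Gene lists and their members were chosen with earlier results of these data known, whereas the 5 libraries were chosen by their labels. Named genes are members of the described lists, and the 12 highest and 12 lowest fold changes among called genes whose libraries did not overlap and whose higher group averaged 5 FPKM or more; predicted genes, pseudogenes, small RNAs and receptor or immunoglobulin segments were not eligible there. Some list members are counted but not reported by name here. Which list members are given as examples, and Xist and the V segments, which lie outside these criteria, were chosen after values were seen. Alternatives were a pseudocount of 0.1, no filter, a filter on the 5 libraries, equal totals, quantile normalization, library weights, a replicate block, the compared groups alone, and each library left out.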

Additional observations from a re-analysis of the deposited data

Results flagged for a closer look

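The change from thymic ETP to DN2 differed between induced and natural cells in 55 of the genes examined. The test was limma's, of the difference itself, at an adjusted p of 0.05. Over all genes tested it differed in 664 of 17416 (3.81%). The genes examined were mostly picked from lists or for their natural change, so 55 is not a rate to set beside that share. Values are the log2 change in induced cells minus that in natural cells. The natural values that served to pick genes also enter this test. It is therefore no separate support for genes picked for a large natural change. For H2-Eb1, Clec9a and Plbd1 the difference is the natural change (-7.16, -3.20 and -6.46) with its sign reversed. Without 1 library at a time 6 to 17 of the 55 no longer passed, and with the 4 groups fitted alone 31 did not. The direction stayed in every alternative run. For MHC class II and dendritic genes, the difference was 7.11 for H2-Aa, 6.65 for H2-Ab1, 7.16 for H2-Eb1, 7.35 for Cd74, 5.46 for Batf3, 6.39 for Irf8, 3.20 for Clec9a, 2.40 for Xcr1, 1.48 for Itgax and 2.06 for Cst3. For progenitor and myeloid genes, the difference was 2.26 for Gfi1b, 2.85 for Hoxa7, -3.91 for Ctsg, 2.93 for Ly86, 6.46 for Plbd1, 3.88 for Mpeg1 and 3.54 for Naaa. For Notch, receptor signaling and other T lineage genes, the difference was -4.48 for Dtx1, -1.63 for Heyl, 3.37 for Cd3d, 1.95 for Cd3e, 3.90 for Cd3g, 2.41 for Trat1, 0.99 for Dntt, 1.44 for Il7r and -2.96 for Cd8b1. For receptor V segments, the difference was -4.41 for Trbv14, -3.43 for Trbv15, -2.85 for Trbv31, -4.31 for Tcrg-V1 and -3.01 for Tcrg-V4. For mitotic genes, the difference was 2.85 for Mki67, 3.20 for Aurka, 2.97 for Bub1b, 3.75 for Melk, 3.28 for Plk1, 2.91 for Cenpe, 2.61 for Kif11, 2.70 for Prc1 and 3.51 for Hmmr. For replication genes, the difference was 1.63 for Mcm3, 1.39 for Mcm5, 1.21 for Mcm6, 1.03 for Mcm7, 1.83 for Tk1, 1.21 for Pcna and 1.76 for Pola1. For the remaining genes, the difference was -0.95 for Mcl1, -3.40 for Bmf, 4.56 for Gzma, 2.18 for Prf1, 0.76 for mt-Co1, -3.61 for Pou2af1, -1.74 for Fam163b and -9.26 for Eif2s3y.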

How the results depend on the processing

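The count of 1161 genes was 994 with a pseudocount of 0.1, 1184 without a filter, 1138 with equal totals and 1464 with library weights. It was 119 with the 5 libraries fitted alone, of which 66 were among the 1161. Without 1 library at a time it ranged from 529 to 1043. The count of 664 differences between induced and natural cells was 1073 with library weights and 289 with the 4 groups alone, and ranged from 375 to 641 without 1 library at a time. No called gene named changed sign. Of the list and V segment counts under the alternatives, 144 were flagged as moved and 584 as the same, and only some are given here. With the 5 libraries fitted alone, few lists kept any call. These were dendritic and MHC class II (6 lower), progenitor surface, DNA replication and glycolysis (1 lower each) and T identity factors (1 higher). Of the list counts, homing and adhesion went from 1 higher and 6 lower to 2 higher and 1 lower without DN2 library 3 and to 1 higher and 0 lower without thymic ETP library 2, and ribosome biogenesis from 1 higher and 0 lower to 0 higher and 1 lower with equal totals or without DN2 library 2. Of the 127 called genes named, 10 passed under every alternative, 47 lost the call only with the 5 libraries alone, and 70 also elsewhere. Libraries that share a replicate number had correlations of deviations of 0.006 and 0.029. With 2 thymic ETP libraries the deviations mirror each other, so these values cannot show whether the samples were paired. With a replicate block 1137 and 676 genes passed. With 2 thymic ETP libraries and no read counts, low transcripts are the least certain.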
